A study of Mus musculus with 8 samples.

Results

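The genes for heme synthesis enzymes and for myoglobin were followed in RNA of quadriceps femoris (QF), a large thigh muscle, of mice with and without a muscle deletion of Grpel1. The members were taken by name and are Alas1, Alad, Uros, Urod, Cpox, Ppox and Fech, which encode 7 enzymes of the pathway, and Mb, which encodes myoglobin. All 8 were among the 14012 genes of the table.

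Poly(A) RNA of 8 QF samples was sequenced, 4 labelled control and 4 labelled knockout, with 1 library per mouse. The knockout label stands for Grpel1skm−/−, that is, mice homozygous for a floxed Grpel1 that also carry a tamoxifen-inducible Cre under the human α-skeletal actin promoter. In the study, tamoxifen was started at 5 weeks of age and given on 5 consecutive days, and the knockout mice reached the end point within 5 weeks of the induction. The control label stands for Grpel1flox/flox, so the floxed gene is shared by both groups. For the mice behind these libraries, the sources used here do not state the age at sampling, or whether the controls carried Cre or received tamoxifen. The promoter drives Cre in muscle fibres, so other cells of the muscle keep the floxed gene undeleted. In bulk RNA, fewer cells of a type and less RNA per cell cannot be told apart.

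Totals were 16017565 to 18813042 counts in the control libraries and 16424608 to 20361144 counts in the knockout libraries. The count over the whole Grpel1 gene, 64.1 to 71.2 CPM (counts scaled to a common library size, with TMM factors) in the controls and 59.9 to 71.9 CPM in knockouts, did not separate the groups (log2 fold change −0.07 ± 0.078, SE, adjusted p = 0.487 by edgeR's quasi-likelihood test). It therefore does not check the labels, and each difference below is between libraries labelled knockout and libraries labelled control. The 20 most abundant genes held 36.4 to 39.4% of the counts in controls and 19 to 22.8% in knockouts. The TMM factors, which scale each library for its composition, ran from 0.747 to 0.844 in controls and from 1.19 to 1.33 in knockouts, and the scaling bears on the direction of most of the enzymes. Among the 8 muscle fibre genes used to check the tissue, Myh4 (fast myosin heavy chain) was the most abundant, at 103899 ± 16665 CPM in controls and 20582 ± 4678 CPM in knockouts (SD, n = 4 each). Of these 8 genes 6 were lower and 2 were higher in the knockouts at an adjusted p under 0.01 by edgeR. Over all genes 21.1% were lower and 23.6% higher.

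Heme is built in a path that begins and ends in mitochondria. ALAS1, the enzyme of the first and usually rate-limiting step outside the red cell lineage, makes 5-aminolevulinate in the matrix, cytosolic enzymes turn it into coproporphyrinogen, and CPOX, PPOX and FECH complete the ring and insert the iron inside mitochondria. Heme then serves cytochromes of the respiratory chain and, in muscle, myoglobin, the globin that binds oxygen in the fibre cytoplasm and gives red muscle its colour.

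The members whose level fell most were Mb and Alas1, and their start regions are shown because both genes have known regulatory letters near the start. The sequences are from RefSeq on GRCm38.p6, read 5′ to 3′ on the minus strand, on which both genes lie. For Mb the stretch is the 250 bases before 1 of its start sites, chr15:77022788-77023037. It lies within the span of Mb, after another start site farther upstream, and whether it holds an exon is not shown here. Capitals mark, in order, a CCAAT box read from its other strand, an E-box (CAGCTG), an antioxidant response element (TGACNNNGC) and a CCAC box (CCCACCC). The CCAC box is a known element of myoglobin promoters.
Mb: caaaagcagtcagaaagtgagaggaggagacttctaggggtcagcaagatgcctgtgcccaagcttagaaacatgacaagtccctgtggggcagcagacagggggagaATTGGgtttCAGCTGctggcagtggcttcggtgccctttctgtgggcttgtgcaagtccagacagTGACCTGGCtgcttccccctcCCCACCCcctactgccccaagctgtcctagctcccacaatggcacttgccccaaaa
For Alas1 the stretches are the surroundings of a pair of matches to the NRF1 site (GCGC, any base, TGCGC, in capitals), at chr9:106247935-106247964 and chr9:106247906-106247935. Both matches lie before 1 of the RefSeq start sites of Alas1 and after the other, whose window is chr9:106247955-106248204. They thus lie within the span of the gene, chr9:106233455-106247954. No Alas1 transcript of the GENCODE annotation holds the 20 bases that begin with the upstream match. Whether a transcript from that other start holds them in an exon was not tested here. NRF1 is a nuclear factor that drives genes for mitochondrial proteins.
Alas1 upstream match: gcttcggcgcGCGCGTGCGCgcggcaggcc
Alas1 downstream match: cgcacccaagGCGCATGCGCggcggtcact
Letters were searched on both strands. Of 32851 RefSeq windows of 250 bases before a mouse start site, 3.74% held the NRF1 letters, 15.8% the CCAC box, 33.8% the CCAAT box, 13% this E-box and 10.2% the antioxidant response element. The Alas1 window with both NRF1 matches also held a MEF2 site, from base 169 to base 160 before its start. That site lies outside the stretches shown, and 2.92% of the windows held one. Among the windows of the other enzymes, the NRF1 letters were found in 1 of the windows of Uros (from base 47 to base 38 before the start, where no GENCODE transcript holds the bases just after that start) and not in its other window, before protein-coding transcripts, nor in those of Alad, Urod, Cpox or Ppox. The other RefSeq window of Alas1 held no NRF1 letters either, and the window of Mb farthest upstream held a CCAAT box and none of the other marked motifs. These matches are letters only, and binding was not measured here.

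Of the 8 members, 5 were lower in the knockout libraries at an adjusted p under 0.01 (edgeR's quasi-likelihood test over all genes), none was higher, and 3 were not past this threshold. Over all genes 44.7% were called, 21.1% as lower and 23.6% as higher. None of the members was higher at an unadjusted p under 0.05 or by DESeq2 either, and DESeq2 also called 5 lower. The median log2 fold change was −0.50 over the members and 0.07 over all genes, and 6 of the members lay below that all-gene median. With library totals alone as the scale, without a factor for composition, 1 member was lower (Mb) and 3 were higher (Alad, Uros and Ppox), while 873 of all genes were lower and 8498 higher and the median of all genes moved to 0.73. In 5 of the 8 members control and knockout values had no overlap, against 53.4% of all genes.

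**Figure D1:**
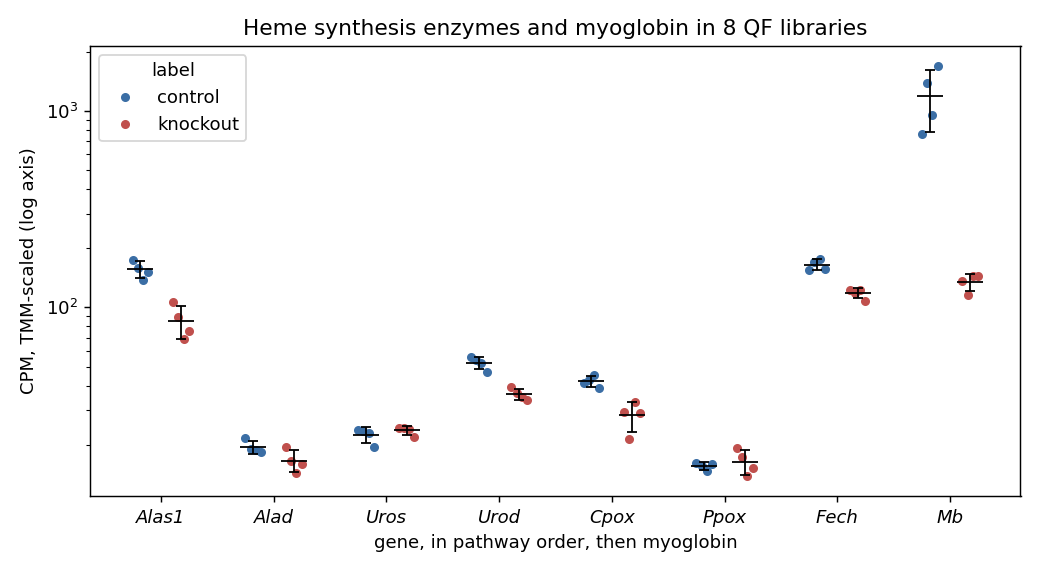
CPM after TMM scaling (log axis) of each member in each library, in pathway order with myoglobin last; blue points are control libraries, red points knockout libraries, and black lines the mean ± SD of 4. The groups are apart for Alas1, Urod, Cpox, Fech and Mb and overlap for Alad, Uros and Ppox; on library totals alone 4 of the lower enzymes lose the call and Mb keeps it.

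Alas1, the entry enzyme, fell the most of the 7 enzymes. Alas1 (Entrez Gene 11655, chr9:106233455-106247954 of GRCm38, the build of all coordinates given, minus strand) had 175, 158, 138 and 152 CPM in control replicates 1 to 4 and 106, 89.5, 68.7 and 76.2 CPM in knockout replicates 1 to 4. The lowest control lay above the highest knockout. The means were 156 ± 15.4 and 85.1 ± 16.4 CPM (SD, n = 4 each), 1.83-fold lower in the knockouts, with a log2 fold change of −0.87 ± 0.132 (SE, adjusted p = 3e-04 by edgeR). By exact permutation over the 70 assignments of the libraries, two-sided, p was 0.029 for Alas1, as for each member whose groups did not overlap, which is the smallest p that this design allows. Before scaling, the counts of Alas1 overlapped, from 1925 to 2412 in controls and from 1665 to 2541 in knockouts, and on library totals alone its log2 fold change was −0.20 (adjusted p = 0.219 by edgeR).

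The position of Alas1 among the enzymes does not depend on the scaling, since it can be read within a library. The log2 ratio of Alas1 to the mean log2 level of the other enzymes was 2.2, 2.08, 1.89 and 2.14 in control replicates 1 to 4 and 1.68, 1.6, 1.21 and 1.41 in knockout replicates 1 to 4, a mean shift of −0.60. All 4 knockout ratios were below all 4 control ratios. The same ratio moved by −0.26 for Cpox, −0.18 for Urod, −0.13 for Fech and 0.16 for Alad, and by 0.52 for Uros and 0.50 for Ppox. The shifts of Alas1, Alad, Uros, Urod and Ppox were larger than the SD of either group, that of Fech was about as large as its SDs (0.129 and 0.116), and that of Cpox was smaller than the SD of its knockout ratios (0.341).

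Among the cytosolic enzymes, Urod was lower and Alad and Uros were not past the threshold. Alad (Entrez Gene 17025, chr4:62505984-62520063, minus strand) encodes the dehydratase that joins molecules of 5-aminolevulinate into porphobilinogen. It had 21.6, 19, 18.8 and 18.3 CPM in controls and 19.5, 16.6, 14.4 and 15.9 CPM in knockouts. Knockout replicate 1 lay within the control range and the other 3 knockouts below it, and the log2 fold change was −0.22 (95% interval −0.48 to 0.03, adjusted p = 0.0909 by edgeR).

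Uros (Entrez Gene 22276, chr7:133686355-133709295, minus strand) encodes uroporphyrinogen III synthase, which closes the ring in its natural isomer. Control values were 23.9, 23.6, 23 and 19.5 CPM and knockout values 24.4, 24.4, 24 and 21.9 CPM. The groups overlapped, with a log2 fold change of 0.08 (95% interval −0.13 to 0.28, adjusted p = 0.46 by edgeR). A fall of the size measured for Urod lies outside this interval on the TMM scale.

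Urod (Entrez Gene 22275, chr4:116989965-116994413, minus strand) encodes the decarboxylase that makes coproporphyrinogen III. It had 56.1, 53.8, 51.8 and 46.9 CPM in controls and 39.4, 36.8, 34.9 and 33.8 CPM in knockouts. The groups were apart, with means of 52.2 ± 3.91 and 36.2 ± 2.44 CPM (SD, n = 4 each), with a log2 fold change of −0.53 ± 0.077 (SE, adjusted p = 0.000236 by edgeR). On library totals alone the sign turned, to 0.14 (adjusted p = 0.105 by edgeR).

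Of the genes of the closing, mitochondrial steps, Cpox and Fech were lower and Ppox was not. Cpox (Entrez Gene 12892, chr16:58670208-58680391, plus strand) encodes coproporphyrinogen oxidase of the intermembrane space. Its values were 41.2, 42.6, 45.2 and 39 CPM in controls and 29.5, 21.3, 33.1 and 28.9 CPM in knockouts, with no overlap. The knockouts varied more than the controls, with a coefficient of variation of 17.6% against 6.14%. The means were 42.0 ± 2.58 and 28.2 ± 4.96 CPM (SD, n = 4 each) and the log2 fold change was −0.57 ± 0.121 (SE, adjusted p = 0.00238 by edgeR). With the level of adipocyte markers as a covariate it was −0.49 and no longer past the threshold (adjusted p = 0.0113 by edgeR), and on library totals alone it turned to 0.09 (adjusted p = 0.416 by edgeR).

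Ppox (Entrez Gene 19044, chr1:171276992-171281186, minus strand) encodes protoporphyrinogen oxidase of the inner membrane. It had 16.2, 15.6, 14.7 and 16 CPM in controls and 19.2, 17.4, 13.9 and 15.2 CPM in knockouts. The knockouts lay on both sides of the controls, with a log2 fold change of 0.07 (95% interval −0.19 to 0.34, adjusted p = 0.589 by edgeR), and without knockout replicate 1 the sign turned, to −0.02.

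Fech (Entrez Gene 14151, chr18:64456550-64489066, minus strand) encodes ferrochelatase, which puts iron into the ring at the inner membrane. It had 155, 170, 177 and 156 CPM in controls and 122, 118, 123 and 108 CPM in knockouts. The groups were apart, with means of 165 ± 10.8 and 118 ± 6.94 CPM (SD, n = 4 each), with a log2 fold change of −0.48 ± 0.073 (SE, adjusted p = 0.000292 by edgeR). On library totals alone it was 0.18 (adjusted p = 0.0235 by edgeR).

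Levels of different genes were compared as CPM per kilobase of exon, on the TMM scale. In the controls Fech had the highest level of the enzymes (56.7 ± 3.72), followed by Alas1 (47.7 ± 4.71), Urod (35.0 ± 2.63), Cpox (13.2 ± 0.81), Uros (9.28 ± 0.83), Ppox (8.59 ± 0.361) and Alad (4.22 ± 0.318; SD, n = 4 each). The values of Fech and Alas1 overlapped in controls, as did those of Uros and Ppox. In the knockouts Fech (40.6 ± 2.39) stood clear of Alas1 (26.1 ± 5.02), whose values then overlapped those of Urod (24.3 ± 1.64). Cpox (8.86 ± 1.56) came to lie among Uros (9.77 ± 0.483) and Ppox (9.03 ± 1.28), and Alad stayed lowest (3.61 ± 0.465; SD, n = 4 each).

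Grouped by place, 3 of the 4 genes for mitochondrial enzymes (Alas1, Cpox, Ppox, Fech) were lower (median log2 fold change −0.53). Of the 3 genes for cytosolic enzymes 1 was lower, with a median of −0.22. Over all genes 21.1% were lower. The difference between these groups of genes was not tested. The 7 enzymes together held 0.035 to 0.0392% of all counts in controls and 0.0372 to 0.0442% in knockouts, shares that overlap, as shares of the total carry no factor for composition.

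Myoglobin mRNA fell far more than that of any enzyme. Mb (Entrez Gene 17189, chr15:77015487-77050668, minus strand) had 764, 1383, 954 and 1683 CPM in control replicates 1 to 4 and 136, 115, 144 and 144 CPM in knockout replicates 1 to 4. The lowest control was several times the highest knockout. The means were 1196 ± 415 and 135 ± 13.6 CPM (SD, n = 4 each), 8.86-fold lower in the knockouts, with a log2 fold change of −3.15 ± 0.235 (SE, adjusted p = 2.86e-06 by edgeR). This change lies at percentile 0.521 of all genes. The call and the direction held in each of the 19 alternatives, library totals alone included.

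The controls were spread widely, with a coefficient of variation of 34.7% against 10.1% in the knockouts. Per kilobase, Mb ranked 75, 40, 58 and 38 among the 14012 genes in control replicates 1 to 4 and 492, 532, 455 and 451 in knockout replicates 1 to 4. It held 0.059 to 0.142% of the counts in controls and 0.0153 to 0.0187% in knockouts.

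The ratio of the globin to its cofactor's pathway moved with it. Mb per kilobase was 3.36, 6.17, 4.38 and 8.15 times the sum of the 7 enzymes in control replicates 1 to 4, and 0.807, 0.751, 0.976 and 1.02 times that sum in knockout replicates 1 to 4. The log2 ratio of Mb counts to Alas1 counts was 2.13, 3.13, 2.79 and 3.47 in controls and 0.37, 0.37, 1.07 and 0.92 in knockouts. Neither ratio overlapped between the groups, and neither depends on the scaling.

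The span of Mb overlaps that of Apol6 on the other strand by 5594 bases, and the sources do not state whether strand was used in the counting. Apol6 had 127 to 484 counts per library, against 9453 to 26709 counts of Mb in controls and 2519 to 3621 in knockouts. No other member overlapped a gene of the table.

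Mb is a textbook gene of oxidative fibres, so its level was set beside fibre genes. Of 8 oxidative fibre genes 5 were higher in the knockouts and none was lower (none at an unadjusted p under 0.05 or by DESeq2 either), with a median log2 fold change of 3.24. The largest among those past the threshold were Tnni1, Tnnc1 and Tnnt1 (slow troponin subunits), with log2 fold changes of 5.06, 4.67 and 3.68 (adjusted p = 4.74e-06, 9.99e-05 and 0.000112 by edgeR). Mb thus moved in the opposite direction to these slow fibre genes. Myh2, the myosin of fast oxidative fibres, named after its value was seen, did not pass the test (log2 fold change 0.21, adjusted p = 0.70 by edgeR). Its controls had 252, 1620, 706 and 1260 CPM. Control replicate 1 was thus the lowest of its group in both Myh2 and Mb, and without it the log2 fold change of Myh2 was −0.11.

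Of 8 fast fibre genes 7 were lower and 1 was higher, with a median of −1.35. Myh4, Pvalb (the calcium buffer parvalbumin) and Tnnc2 (fast troponin C) had log2 fold changes of −2.34, −2.30 and −1.49 (adjusted p = 1.19e-05, 4.64e-05 and 2.14e-05 by edgeR), and Myh1, the myosin of type IIx fast fibres, was higher (1.15, adjusted p = 0.0017 by edgeR). Myh1 was named after its value was seen. The fitted fall of Mb was larger than that of each of these 7 genes.

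**Figure D2:**
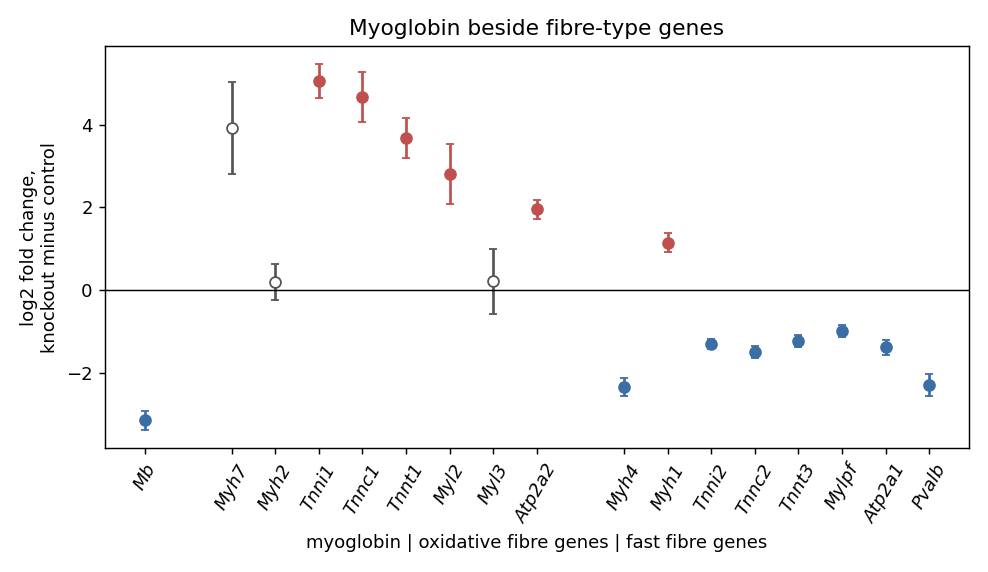
Log2 fold change, knockout minus control on TMM scaling, with its standard error, of Mb, 8 oxidative fibre genes and 8 fast fibre genes; filled blue is lower and filled red higher at an adjusted p under 0.01, and open symbols did not pass. Mb (−3.15) lies below every fibre gene plotted, whereas all 8 oxidative fibre genes and Myh1 lie above 0, 5 of the 8 with filled symbols.

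Of the 4 genes of heme breakdown 2 were higher in the knockouts and none was lower (none at an unadjusted p under 0.05 or by DESeq2 either), with a median log2 fold change of 0.54. Hmox1, the inducible heme oxygenase, had 9.86, 6.61, 7.23 and 6.05 CPM in control replicates 1 to 4 and 27, 24.9, 26.7 and 24.8 CPM in knockout replicates 1 to 4. Its groups were far apart, with a log2 fold change of 1.81 ± 0.137 (SE, adjusted p = 3.19e-06 by edgeR). Hmox2, the constitutive heme oxygenase, had a log2 fold change of 0.26 that just missed the threshold (adjusted p = 0.0106 by edgeR) and passed it with upper-quartile factors or with a filter on low counts. Of the genes named for biliverdin reductases, Blvrb was higher (0.82, adjusted p = 0.00358 by edgeR) and Blvra had 0.04 (adjusted p = 0.783 by edgeR). The call of Blvrb was lost when control replicate 2 or 3, or knockout replicate 1 or 2, was left out, at adjusted p of up to 0.0137 by edgeR, and with red cell or adipocyte markers as a covariate (adjusted p = 0.0101 and 0.0176).

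The genes listed for heme transport, which include heme-binding proteins and a carrier of glutathione, were mixed. Of 14 measured genes 5 were higher and 3 were lower (median log2 fold change 0.17). The largest were Hebp1 (a heme-binding protein; 2.05, adjusted p = 9.74e-06 by edgeR), Slc25a39 (a mitochondrial carrier of glutathione; 0.96, adjusted p = 6.56e-06 by edgeR) and Pgrmc1 (a membrane protein that binds heme; 0.93, adjusted p = 0.00144 by edgeR). Abcb6 and Abcb10, transporters of the ABC family named after their values were seen, were lower, with log2 fold changes of −0.82 and −0.52 (adjusted p = 7.75e-06 and 0.000303 by edgeR). On library totals alone Abcb6 was no longer past the threshold and Abcb10 turned to 0.15.

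The genes that turn heme b into the hemes of cytochromes split as well, with 3 of 6 lower and 1 higher and a median of −0.14. Cox10 and Cox15 make heme a. Cox10 was lower (−0.39, adjusted p = 0.00174 by edgeR) and Cox15 had 0.16 (adjusted p = 0.0859 by edgeR). Hccs, which attaches heme to cytochromes c, was lower (−0.31, adjusted p = 0.00476 by edgeR), a call that was lost when control replicate 1, 2 or 3, or knockout replicate 1, was left out (adjusted p of up to 0.0156 by edgeR), with the replicate block (adjusted p = 0.0121) and with adipocyte markers as a covariate (adjusted p = 0.019). Fdx1, a ferredoxin, was lower (−0.77, adjusted p = 4.21e-05 by edgeR), its reductase Fdxr was higher (0.77, adjusted p = 0.000674 by edgeR), and the related Fdx1l had 0.03 (adjusted p = 0.901 by edgeR). On library totals alone Cox10 and Hccs turned to 0.28 and 0.36, and Fdx1 was no longer past the threshold (−0.10, adjusted p = 0.342 by edgeR).

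All 6 genes for heme-carrying proteins of the respiratory chain were lower (median log2 fold change −0.80). COX1 and CYTB, which mitochondrial DNA encodes, had −1.72 and −1.55 (adjusted p = 5e-06 and 5.27e-06 by edgeR), and Cycs, the gene of cytochrome c, had −0.96 (adjusted p = 1.13e-05 by edgeR). On library totals alone 3 of the 6 stayed past the threshold. Of 18 genes for other heme-binding proteins 5 were lower and 2 were higher, with a median of −0.02. They were led by Nos1 (neuronal nitric oxide synthase, −2.56, adjusted p = 4.42e-06 by edgeR), Nr1d1 (a heme-sensing clock repressor, −1.92, adjusted p = 1.51e-06 by edgeR) and Cybb (a subunit of the phagocyte oxidase, 1.44, adjusted p = 0.000756 by edgeR). Eif2ak1, the kinase that heme deficiency activates, named after its value was seen, was lower (−0.45, adjusted p = 0.000188 by edgeR), and on library totals alone it turned to 0.21.

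Of 21 genes for known regulators of Alas1 or Mb, or of the turnover of ALAS1 protein, 8 were lower and 6 were higher, with a median log2 fold change of −0.20. Egln3, a prolyl hydroxylase of hypoxia-inducible factors, rose by 2.21 on the log2 scale (adjusted p = 1.19e-06 by edgeR). Nr1d1, given above, had the next largest change, −1.92, followed by Lonp1, a matrix protease that degrades ALAS1, which rose by 1.0 on the log2 scale (adjusted p = 2.26e-05 by edgeR). Named after their values were seen, Esrra, which drives mitochondrial genes, was lower (−0.85, adjusted p = 7.02e-06 by edgeR), and Nfe2l2, the activator of Hmox1, was higher (0.85, adjusted p = 6.5e-06 by edgeR). On library totals alone Esrra was no longer past the threshold (−0.18, adjusted p = 0.114 by edgeR). The subunits of the ClpXP protease, which acts on ALAS1, also named after their values were seen, moved in opposite directions. Clpx, the unfoldase, was lower (−0.39, adjusted p = 0.00293 by edgeR) but higher on library totals alone (0.28, adjusted p = 0.00352 by edgeR), and its call was lost without control replicate 2 (adjusted p = 0.0101 by edgeR). Clpp, the peptidase, was higher (0.34, adjusted p = 0.00685 by edgeR), a call that was lost when control replicate 1, 2, 3 or 4, or knockout replicate 1 or 2, was left out (adjusted p of up to 0.0219 by edgeR) and with RLE factors (0.0106). Ppargc1a, the coactivator PGC-1α that induces Alas1 and Mb, also named after its value was seen, lay at the threshold (−0.54, adjusted p = 0.00905 by edgeR), with overlapping groups. Its call was lost when control replicate 2, 3 or 4, or knockout replicate 1, 3 or 4, was left out, at adjusted p of up to 0.0294 by edgeR, and with adipocyte markers as a covariate (adjusted p = 0.0325), upper-quartile factors (0.0137) or at least 10 counts in every library (0.0128).

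Over the 8 libraries, the genes whose log2 CPM, centred on its mean, ran closest to that of Alas1 among 8042 genes of at least 10 CPM were 1600014C10Rik, Mpc2 (a subunit of the mitochondrial pyruvate carrier) and Eif4e3, with root mean square differences of 0.0932, 0.099 and 0.104 log2 units. For Mb they were Magix, Col22a1 (a collagen of the muscle-tendon junction) and 9330159F19Rik, at 0.26, 0.297 and 0.335 log2 units. Magix had a log2 fold change of −3.09, close to that of Mb. These genes were ranked on the same libraries, so the likeness is a description.

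Blood and other cells of the muscle can carry members of this set. Among the red cell markers other than Tfrc, none of 5 was past the threshold in either direction, nor at an unadjusted p under 0.05 or by DESeq2, and none was at 0 in any library. Their summed level was 41.1 to 102 CPM in controls and 8.61 to 96.7 CPM in knockouts, and knockout replicate 2 was the lowest. Alas2, the ALAS of red cells, had 4.17 ± 0.835 CPM in controls and 2.99 ± 1.82 CPM in knockouts (SD, n = 4 each; adjusted p = 0.372 by edgeR), and the most abundant marker, Hbb-bs, had 41.0 ± 14.8 and 33.4 ± 20.8 CPM. Tfrc, the transferrin receptor, which muscle also uses, was lower (log2 fold change −1.24, adjusted p = 7.82e-05 by edgeR). With the red cell markers as a covariate the same number of members, 5, was lower.

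Of the other cell types, 4 of 5 endothelial markers were lower (summed level 258 to 388 CPM in controls, 186 to 212 CPM in knockouts), as were 3 of 5 fibroblast markers (1292 to 1819 CPM, 529 to 774 CPM). Of 6 macrophage markers only Cd68 was past the threshold, and higher (log2 fold change 2.62), and the other 5 did not pass. Their sums, 39.6 to 96.5 CPM in controls and 73.2 to 131 CPM in knockouts, overlapped. Of 3 cardiac markers only Tnnt2 was past the threshold, and higher (5.45), with sums of 2.99 to 8.71 CPM and 49.7 to 114 CPM. The knockout sum was mostly Tnnt2, at a mean of 73.6 CPM. Named after their values were seen, Myh6 went the other way (−0.91, adjusted p = 0.0663 by edgeR) and Tnni3 stayed low (means of 0.199 and 0.577 CPM, adjusted p = 0.0337). Of 4 satellite cell markers 2 were lower and 1 higher (13.2 to 25.8 CPM, 11.8 to 13.6 CPM). None of 6 adipocyte, 3 brown adipocyte or 4 Schwann cell markers was past the threshold, and by DESeq2 none was either, but 1 of each was higher at an unadjusted p under 0.05. The adipocyte sum was 30.6 to 889.9 CPM in controls and 373 to 1591 CPM in knockouts, and that of brown adipocyte markers 0.716 to 73.1 CPM and 3.76 to 99.6 CPM. The Schwann cell sum was 34.5 to 117 CPM in controls and 56.2 to 91.7 CPM in knockouts. The part of these cell types in the levels of the members was not tested, except that 5 and 4 members were lower with the red cell and the adipocyte markers as covariates.

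**Figure D3:**
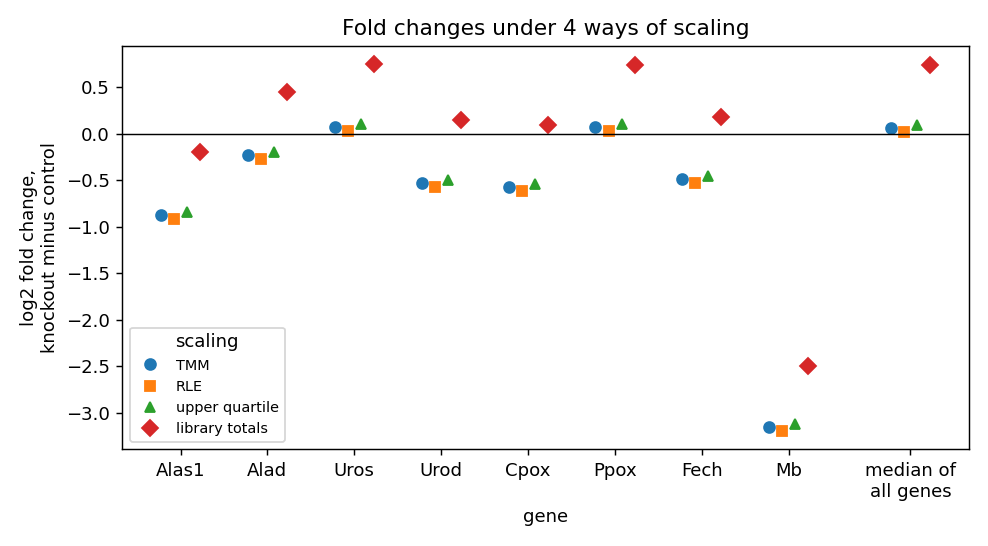
Log2 fold change, knockout minus control, of each member and the median of all genes under 4 ways of scaling the libraries (TMM, RLE, upper quartile and library totals alone). Mb lies below 0 under each, while on library totals alone the median of all genes moves to 0.73 and Alad, Urod, Cpox and Fech lie above 0.

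The scaling moved all members by nearly the same amount. On library totals alone the log2 fold changes of Alas1, Alad, Urod, Cpox and Fech, less the all-gene median of the same scaling, were −0.93, −0.29, −0.59, −0.64 and −0.55. Those of Uros and Ppox were both 0.01 and that of Mb was −3.23. Relative to the other genes, therefore, the order of the members was that of the TMM scale, and the lower calls of the enzymes are falls relative to the bulk of genes. As a share of all counts, none of these enzymes was lower past the threshold. Alas1 had a log2 fold change of −0.20 on that scale, and the sign turned for Urod, Cpox and Fech. Absolute amounts of RNA per muscle were not measured here.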

How the data were processed

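Poly(A) RNA of QF was sequenced from 8 mice. To obtain the deposited raw counts, the authors trimmed reads (cutadapt), aligned them to GRCm38 (STAR 2.5.4b) and counted exonic pairs (Rsubread 2.6.4), dropping duplicates, chimeras, multimappers and low mapping quality, and left out genes with few reads (lowest total 51). The annotation release and the use of strand are not given in the sources used here. The deposited FPKM values, which the authors derived from these counts and the exon width, served only as an alternative for levels. The deposited mean signal, log2 fold changes with their errors, and p-values are the authors' DESeq2 1.32.0 comparison and were not used.

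All 14012 genes were fitted with edgeR 4.0.16 (R 4.3.3, limma 3.58.1) on TMM-scaled counts by glmQLFit and glmQLFTest on the label, and p-values were adjusted by Benjamini-Hochberg, with calls below 0.01. Standard errors are the log2 fold change over the square root of F, and 95% intervals use 6 degrees of freedom. For log2 CPM a prior count of 2 was used. The floor of 3 counts was 0.189 to 0.242 CPM in controls and 0.119 to 0.137 CPM in knockouts, for counting error only. Single values were compared by exact permutation. The study gives 4 mice per group, and replicates of a group differed more than counting error gives (chi-square of 17.2 to 42.7 per degree of freedom).

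The members, gene lists and tests were chosen with earlier results of these data known. Named are the members, Alas2, every listed gene of breakdown and of heme a and c, up to 3 of each other list with the largest change past the threshold, the most abundant gene of a marker list, and 3 genes most like Alas1 and Mb. Any other gene is said to be named after its values were seen. Some listed genes are not reported here. Tried as alternatives were RLE and upper-quartile factors, library totals, filters on low counts, DESeq2 1.42.0, an adjusted p under 0.05, the replicate block, covariates, leaving out the 20 most abundant genes and leaving out each library. The procedure was tested on simulated data in which 200 genes were changed, equally in both directions. That simulation did not mimic the difference in composition between the groups, so it does not bear on the choice of scaling. Promoter windows are from RefSeq (GRCm38.p6), with no window used for Fech.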

Additional observations from a re-analysis of the deposited data

Results flagged for a closer look

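The Uros level of knockout replicate 4 lay apart from the other 3 knockout libraries. Its log2 CPM was 4.46, against 4.59 to 4.61 in the others, and the gap to the nearest of them was 0.856 of the range of the group, above Dixon's 95% critical value for 4 samples. Among the 16 groups of values examined, this was the only such sample, and chance gives about 1 in 20 groups. Control replicate 4 also had the lowest Uros level of its group, 19.5 CPM.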

How the results depend on the processing

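Library totals alone changed the most: 873 of all genes were lower and 8498 higher, and 1 member was lower and 3 were higher, with a median of 0.165 over the members. The log2 fold changes were then −0.20 for Alas1 and 0.14 for Urod, 0.091 for Cpox and 0.18 for Fech, none past the threshold, and 0.45 for Alad, 0.74 for Uros and 0.74 for Ppox, all past it. Among genes named beside them, the sign turned for Alas2 (0.16), Cox10 (0.28), Hccs (0.36), Abcb10 (0.15), Ppargc1a (0.13), Eif2ak1 (0.21), Clpx (0.28) and Hbb-bs (0.34). Fdx1, Abcb6 and Esrra kept their sign but were no longer past the threshold. Such totals carry no factor for the smaller share of the most abundant genes in knockouts.

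With adipocyte markers as a covariate Cpox had −0.49 and was no longer past the threshold, Ppox turned to −0.012 and Blvra to −0.013, Blvrb, Hccs, Ppargc1a, Clpx and Clpp were no longer past the threshold, and 4 members were lower; the cause was not tested. With red cell markers as a covariate Fdx1l turned to −0.02 and Hbb-bs to 0.048, and Blvrb and Clpp were no longer past the threshold. With RLE factors, and with DESeq2, Blvra turned to −0.005 and Fdx1l to −0.01. In every other alternative 5 members were lower and none was higher, and Mb kept its call in all 19.

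Without 1 library at a time, the log2 fold changes ran from −1.01 to −0.81 for Alas1, −0.58 to −0.49 for Urod, −0.69 to −0.47 for Cpox, −0.54 to −0.45 for Fech and −3.31 to −2.94 for Mb, each past the threshold throughout. They ran from −0.32 to −0.17 for Alad, 0.01 to 0.10 for Uros, −0.024 to 0.11 for Ppox, −0.035 to 0.089 for Blvra, −0.12 to 0.15 for Fdx1l, −0.62 to 0.049 for Hbb-bs and −0.11 to 0.58 for Myh2.

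The labels give no meaning to the replicate numbers, and they were not taken as pairs, since the correlations of deviations between same-numbered libraries, 0.26, 0.04, 0.53 and 0.15, were not all over 0.1. As a hint from the data, 5 of 8 libraries correlated best with their own number. With the replicate block 6123 genes were past the threshold, 2908 lower and 3215 higher, with 5 members lower, Alas1 at −0.89 and Mb at −3.09, and Hccs and Clpp were no longer past the threshold. COX1, CYTB, Myh4, Tnnc2 and Myh1 have no value without the 20 most abundant genes, which include them.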
